A study of Mus musculus with 13 samples.

Results

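This account covers the comparison of mice with a Klf4 deletion in cells that express Agrp with littermate controls after high-fat diet (HFD), measured across all genes in bulk RNA from the arcuate nucleus of the hypothalamus. The sample titles place 7 of the series' 13 libraries in it. The KO_HFD group held 3 mice and the Control_HFD group 4 mice, each sequenced as 1 library. In replicate order, the sex letters of the titles are M, F and F in KO_HFD and M, M, F and F in Control_HFD. On chow they are M, F and F in KO and M, M and F in control. The KO mice carried Cre recombinase expressed from Agrp together with floxed Klf4, so that only cells that have expressed Agrp lose the gene. The littermate controls are not described further: the labels do not state whether they carried Cre or the floxed allele, which Agrp-Cre line was used or which part of Klf4 was deleted. All 7 mice were switched to HFD for 10 weeks and were 20 weeks old when the brain was collected. The other 6 libraries, KO (n = 3) and control (n = 3) mice of the same age kept on chow, served for the estimate of spread and for the comparison between diets.

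AgRP neurons are the hunger-promoting cells of the arcuate nucleus. They release AgRP, NPY and GABA, and act against the neighbouring POMC neurons, whose melanocortins reduce feeding. KLF4 is a zinc-finger transcription factor that binds GC-rich and CACCC-type sequences and is best known from stem cells and epithelia. HFD feeding is known to engage leptin and insulin signalling, glial and inflammatory responses and the stress hormone corticosterone in this region.

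The KO_HFD libraries held 50.1 to 62.0 M counts and the Control_HFD libraries 45.4 to 68.2 M. Pearson correlations of log2 CPM (counts scaled to library size) were 0.977 to 0.98 among the KO libraries, 0.974 to 0.984 among the controls and 0.969 to 0.988 between the groups, so the ranges overlapped and the lowest value was between the groups. Replicates differed by more than sampling noise, with a chi-square of 33.7 to 70.9 per degree of freedom. Nothing says which mice shared a litter or a preparation day, so p-values measure the spread between these libraries only. Agrp, Npy and Pomc, the defining peptides of the arcuate nucleus, were present in all 7 libraries, and the pituitary hormone genes Gh and Prl did not exceed 1.81 RPKM (counts scaled to gene length and library size). Libraries of the same group differed in the summed level of markers of neighbouring nuclei. A list of 16 genes of neighbouring hypothalamic nuclei summed to 5494, 8446 and 4071 CPM in KO_HFD, against 2767, 3232, 1999 and 8779 CPM in Control_HFD. Of these genes 8 were higher in KO and 8 lower, at a median log2 difference of 0.02. The median deviation of the members from their 7-library mean (log2 CPM) did not rank the libraries as the sums did. It was 0.261, 0.476 and -0.165 in KO_HFD, against 0.029, -0.416, -0.019 and 0.084 in Control_HFD.

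Klf4 itself did not separate the groups. It was at 2.42, 5.50 and 5.75 CPM in the KO_HFD libraries, against 1.60, 5.47, 3.09 and 4.10 CPM in the Control_HFD libraries. The groups overlapped, with a log2 difference of 0.24 ± 0.37 (SE). The lowest Klf4 level of each group stood in its replicate 1, and those 2 libraries also held the least meningeal RNA, where a list of 19 meningeal and collagen genes summed to 458 CPM (KO) and 463 CPM (control) against 1542 to 5139 CPM in the other 5. The part of meningeal and vascular Klf4 in these values was not tested. In bulk tissue, fewer cells of a type and less RNA per cell cannot be told apart, here and in every result below.

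Hsd11b2, the enzyme that inactivates corticosterone, lies next to Agrp on chromosome 8 and gave a further check of the labels. It was at 68.5, 61.9 and 61.6 CPM in KO_HFD, against 0.915, 0.339, 63.4 and 1.57 CPM in Control_HFD. The library labelled Control_HFD replicate 3 therefore stood at the KO level. Its title gives the same mouse number as KO_HFD replicate 2 with another suffix. Control_HFD replicates 1 and 2 also share a number with each other, and what a shared number means is not stated. Results are given for all 7 libraries as labelled and, where it matters, without this library.

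No gene passed the threshold on HFD. With edgeR's quasi-likelihood test, 0 of 23622 genes (0%) had an adjusted p under 0.05, and the adjusted p was 1 for every gene. An unadjusted p under 0.05 was reached by 393 genes, or 1.66%, of which 179 (0.758%) were higher in KO and 214 (0.906%) lower. That share is below the fraction of 0.05 that uniform p-values would give if no gene differed. DESeq2 also called 0 genes, with 397 at an unadjusted p under 0.05. The 3 KO libraries lay entirely above the 4 control libraries for 442 genes (1.87%) and entirely below them for 366 (1.55%). Without the library labelled Control_HFD replicate 3, 1 of 23599 genes passed (0.00424%). That gene was Hsd11b2, with a log2 difference of 6.03 ± 0.43 (SE) and an edgeR adjusted p of 0.00335, against 2.44 ± 1.41 with all 7 libraries. The library was doubted because of its Hsd11b2 level, so leaving it out favours this gene and the result is no independent support. In a fit of the 6 remaining HFD libraries alone, chosen after seeing the data, 0 genes passed. All differences named below are therefore descriptions of the genes with the smallest p, not calls.

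Among genes that were higher in KO_HFD, the smallest p belonged to Pim3, Sgk1, N4bp1, Zbtb16, Spcs3, Fkbp5, Srbd1, Cryab, Zadh2, Vegfa, Nedd9 and Tmem164. Pim3 is a survival kinase of the PIM family (ENSMUSG00000035828.11, mm10 chromosome 15, 88862186 to 88865726, plus strand). It was at 82.3, 83.2 and 79.4 CPM in KO_HFD, against 64.7, 72.8, 61.1 and 59.0 CPM in Control_HFD. Every KO library lay above every control library, by a log2 difference of 0.36 ± 0.09 (SE, edgeR adjusted p = 1), and the difference was 0.34 ± 0.10 without the library labelled Control_HFD replicate 3. Cryab, a small heat-shock protein abundant in glia, was at 90.01, 134 and 87.0 CPM in KO_HFD, against 71.3, 71.5, 58.6 and 61.5 CPM in Control_HFD. Its groups did not overlap either, with a log2 difference of 0.59 ± 0.20 that was 0.47 ± 0.21 without the doubted library. The other PIM kinases did not move with Pim3: Pim1 differed by 0.22 and Pim2 by -0.06 on the log2 scale, with overlapping groups.

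Vegfa, the main growth factor of blood vessels, was at 46.9, 45.6 and 61.0 CPM in KO_HFD, against 42.0, 40.3, 34.8 and 44.6 CPM in Control_HFD. Nedd9, an adhesion scaffold protein, was at 30.5, 28.05 and 32.0 CPM in KO_HFD, against 20.7, 23.4, 22.5 and 27.9 CPM in Control_HFD. Both separated the groups narrowly, with the nearest KO and control libraries close to each other. Srbd1, Zadh2 and Tmem164 had log2 differences of 0.46 ± 0.16, 0.32 ± 0.11 and 0.30 ± 0.10 (SE). Across the 12 genes the log2 differences ran from 0.18 to 0.68, and Sgk1 alone among them had overlapping groups.

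By the same rule, the lower genes with the smallest p were Scoc, Spag1, Trpc5, Cpne2, AW551984, Crnde, Itga2b, Ulk4, Zfp330, Atad5, Plekha7 and Lrrc49. Scoc encodes a coiled-coil protein of the Golgi with a role in autophagy (ENSMUSG00000063253.11, mm10 chromosome 8, 83430084 to 83458391, minus strand). It was at 119, 122 and 108 CPM in KO_HFD, against 161, 149.95, 179 and 144 CPM in Control_HFD. The groups did not overlap, and the log2 difference of -0.44 ± 0.09 (SE) had the smallest p among these 24 genes (0.000434, edgeR adjusted p = 1). On chow, where KO had 141, 148 and 129.7 CPM and controls 152, 132 and 135 CPM, the difference was 0.00 ± 0.10.

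Trpc5 forms a cation channel through which leptin and serotonin excite POMC neurons (ENSMUSG00000041710.4, mm10 chromosome X, 144381671 to 144688180, minus strand). It was at 10.6, 8.66 and 6.39 CPM in KO_HFD, against 13.2, 12.8, 12.3 and 16.9 CPM in Control_HFD. All KO libraries were below all controls, with a log2 difference of -0.68 ± 0.20 (SE), and the chow difference had the same sign (-0.42 ± 0.22). Spag1, an assembly factor for the dynein arms of motile cilia, was at 12.53, 12.04 and 12.9 CPM in KO_HFD, against 16.7, 17.3, 14.8 and 14.3 CPM in Control_HFD. Its groups did not overlap, while a list of 14 ependymal cilia genes had 11 members lower and 1 (Hydin) without overlap (1.55% of all genes were lower without overlap), at a median log2 difference of -0.24 that was -0.39 without the library labelled Control_HFD replicate 3. On chow, all 14 cilia genes were higher in KO with a median of 0.95, the opposite direction.

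Itga2b, the integrin of platelets, Atad5, which unloads the sliding clamp after replication, Plekha7, of adherens junctions, Lrrc49 and the pseudokinase Ulk4 were lower by log2 differences of -0.45 ± 0.15, -0.44 ± 0.16, -0.23 ± 0.08, -0.22 ± 0.08 and -0.19 ± 0.06 (SE). The KO and control libraries of Itga2b and Ulk4 overlapped. Of the 24 leading genes in both directions, 21 had groups without overlap, which the choice by small p makes likely. Without the library labelled Control_HFD replicate 3, 20 of the 24 still had an unadjusted p under 0.05. On chow, 14 of the 24 had the same sign, where 59.2% of all genes did, and 1 of them (Ulk4) had a chow p under 0.05 in the same direction, against 3 (Zbtb16, Fkbp5 and Cpne2) in the opposite one, where 12.9% of all genes had a chow p under 0.05 in either direction.

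**Figure D1:**
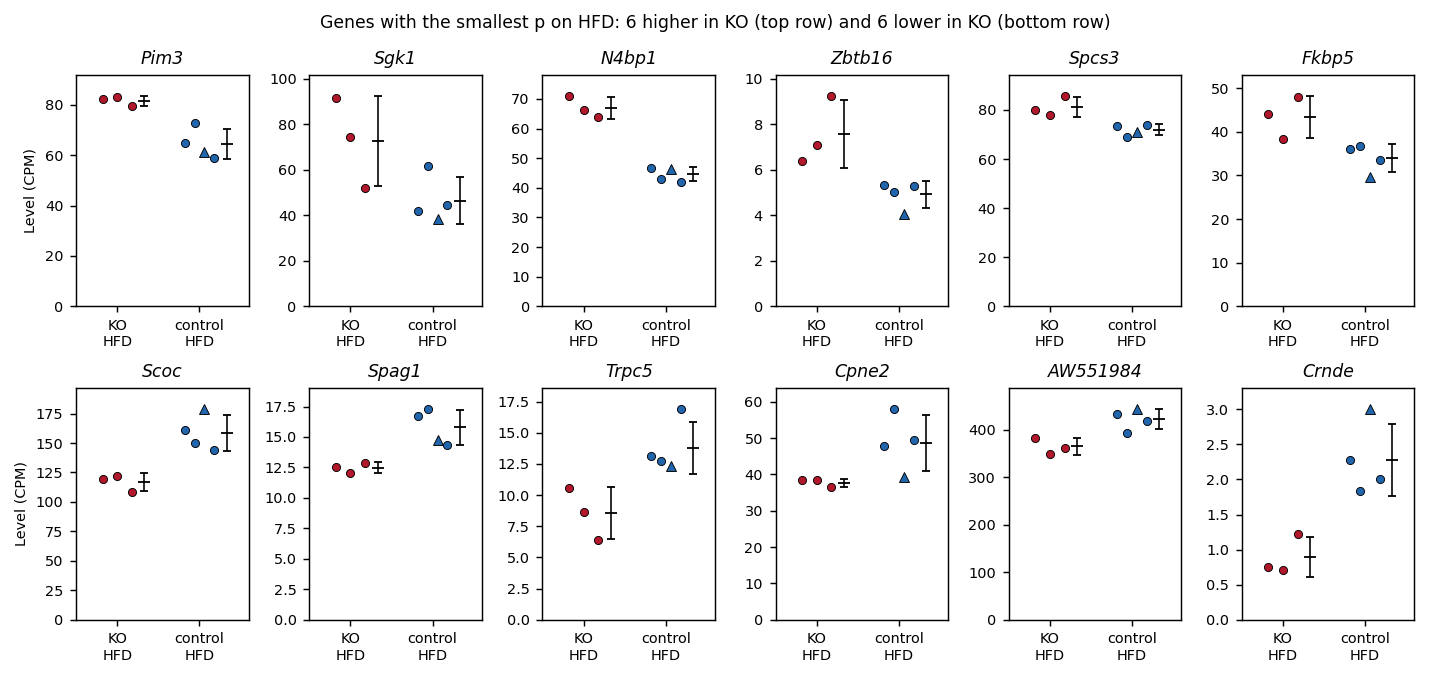
Level in CPM (vertical axis, from 0) of the 6 higher and 6 lower leading genes with the smallest p, in each KO_HFD library (red) and each Control_HFD library (blue). The triangle marks the library labelled Control_HFD replicate 3. Bars show mean ± SD (n = 3 and 4). Pim3 stays between 79.4 and 83.2 CPM in KO and between 59.0 and 72.8 CPM in control, and Scoc is the mirror case, at 108 to 122 CPM in KO and 144 to 179 CPM in control.

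Since KLF4 binds CACCC-type sequence, the 250 bases before the transcription start that RefSeq lists are shown for Pim3, Scoc and Fkbp5. Pim3 and Scoc are the higher and the lower leading gene with the smallest p, and Fkbp5 is a classical glucocorticoid target described below. The sequences come from RefSeq on GRCm38.p6, the assembly called mm10, read 5′ to 3′ on the gene's strand. They are Pim3 at chr15:88861944-88862193 (plus strand), Fkbp5 at chr17:28486150-28486399 (minus strand) and Scoc at chr8:83458397-83458646 (minus strand, the farther upstream of its 2 listed starts). The RefSeq start of Fkbp5 lies inside the longer gene span that GENCODE gives below. Capitals mark CACCC or its reverse GGGTG.
Pim3: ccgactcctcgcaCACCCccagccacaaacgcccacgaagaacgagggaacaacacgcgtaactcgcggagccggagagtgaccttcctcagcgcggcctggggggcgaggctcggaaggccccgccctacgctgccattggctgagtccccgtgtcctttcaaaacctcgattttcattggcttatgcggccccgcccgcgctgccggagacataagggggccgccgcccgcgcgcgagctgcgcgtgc
Fkbp5: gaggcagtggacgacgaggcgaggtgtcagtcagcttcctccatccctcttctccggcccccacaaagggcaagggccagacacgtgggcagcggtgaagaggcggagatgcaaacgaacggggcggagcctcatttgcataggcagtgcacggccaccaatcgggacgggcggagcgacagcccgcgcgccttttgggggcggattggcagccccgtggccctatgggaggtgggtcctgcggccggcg
Scoc: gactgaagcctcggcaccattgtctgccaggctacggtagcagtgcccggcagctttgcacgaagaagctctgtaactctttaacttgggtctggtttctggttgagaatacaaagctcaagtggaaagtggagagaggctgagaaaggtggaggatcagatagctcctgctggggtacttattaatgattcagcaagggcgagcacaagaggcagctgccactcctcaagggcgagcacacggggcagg
The motif CACCC, searched on both strands, occurs 1 time in the Pim3 window and 0 times in the Fkbp5 and Scoc windows. It is found in 52.0% of all 32851 promoter windows of this length. A match is a description of letters only.

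Genes that respond to glucocorticoids stood among those higher in KO_HFD. Of a list of 23 such genes, 18 were higher and 5 lower, with a median log2 difference of 0.16, where the median of all genes tested was -0.00 and 49.0% were higher. An unadjusted p under 0.05 was reached by 4 members, all higher (0.758% of all genes), and 5 members had groups without overlap (1.87% of all genes). None passed adjustment, and earlier results of these data were known when the list was chosen. Without the library labelled Control_HFD replicate 3, 17 of the 23 were higher at a median of 0.17, and leaving out each library in turn gave medians from 0.10 (without KO_HFD replicate 2) to 0.21 (without Control_HFD replicate 4).

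Sgk1, a kinase gene switched on by corticosteroids (ENSMUSG00000019970.15, mm10 chromosome 10, 21882184 to 21999903, plus strand), was at 91.7, 74.6 and 52.2 CPM in KO_HFD, against 41.9, 61.6, 38.3 and 44.4 CPM in Control_HFD. KO_HFD replicate 1 was the highest of the 13 libraries, and the groups overlapped at KO_HFD replicate 3 and Control_HFD replicate 2. The log2 difference was 0.68 ± 0.17 (SE). Zbtb16, a zinc-finger transcription factor gene (ENSMUSG00000066687.5, mm10 chromosome 9, 48654297 to 48836222, minus strand), was at 6.39, 7.07 and 9.25 CPM in KO_HFD, against 5.32, 5.01, 4.06 and 5.27 CPM in Control_HFD. Fkbp5, a co-chaperone that lowers the receptor's affinity for hormone (ENSMUSG00000024222.17, mm10 chromosome 17, 28399094 to 28517527, minus strand), was at 44.0, 38.4 and 48.0 CPM in KO_HFD, against 36.2, 36.8, 29.7 and 33.6 CPM in Control_HFD. Neither Zbtb16 nor Fkbp5 overlapped between the groups. Tsc22d3, which encodes the anti-inflammatory protein GILZ, was at 116, 121 and 151 CPM in KO_HFD, against 90.5, 106, 103 and 109 CPM in Control_HFD, again without overlap.

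Beyond these 4, Klf9, a Krüppel-like factor induced by corticosteroids, was at 65.5, 65.5 and 64.1 CPM in KO_HFD, against 56.1, 52.8, 56.1 and 60.4 CPM in Control_HFD, a log2 difference of 0.19 ± 0.10 (SE). Plin4, a lipid droplet protein, also had groups without overlap, at a log2 difference of 0.46. Other classical targets showed little: Per1 and Ddit4 were higher by 0.16 and 0.22, and Dusp1 differed by -0.09. Nr3c1 and Nr3c2, the genes of the glucocorticoid and mineralocorticoid receptors, differed by 0.03 and 0.02. Each of these targets and receptor genes had an unadjusted p over 0.1.

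On chow, the same genes did not run the same way. Zbtb16 and Fkbp5 were lower in KO on chow, with log2 differences of -0.59 ± 0.22 and -0.45 ± 0.14 (SE), and Sgk1 differed by -0.22 ± 0.19. The difference between the diets was 1.21 ± 0.29 for Zbtb16, 0.83 ± 0.19 for Fkbp5 and 0.90 ± 0.25 for Sgk1 (SE), each with an unadjusted p under 0.05 and an edgeR adjusted p of 0.909. Over all genes, 0 of 23622 passed for this difference (0%), and 1205 (5.1%) had an unadjusted p under 0.05. The chow library labelled Control_Chow replicate 3 has the letter F but carried Y-linked Ddx3y at 103 CPM and Xist at 0.692 CPM, so the sex term rests on a doubted letter. Without it the 3 differences were 1.37 ± 0.30, 0.89 ± 0.21 and 0.74 ± 0.27.

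Hsd11b2 levels are given beside these genes, and their part in the differences was not tested. The library labelled Control_HFD replicate 3, with Hsd11b2 at 63.4 CPM, had the lowest Sgk1, Zbtb16 and Fkbp5 levels of the 7 HFD libraries. The 3 KO libraries on chow had Hsd11b2 at 69.4, 60.8 and 64.1 CPM, with Fkbp5 at 32.1, 35.9 and 24.0 CPM, below the 47.6, 45.3 and 38.0 CPM of the chow controls. The labels do not state the time of day or the handling at collection, both known to set corticosterone.

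**Figure D2:**
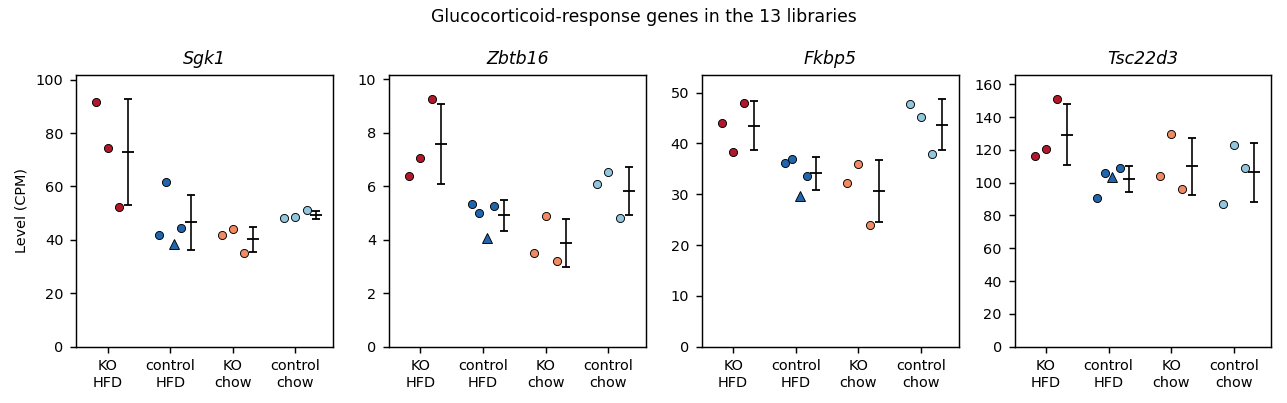
Level in CPM (vertical axis, from 0) of 4 glucocorticoid-response genes in all 13 libraries, grouped by genotype and diet; bars show mean ± SD (n = 3, 4, 3 and 3) and the triangle marks the library labelled Control_HFD replicate 3. Fkbp5 lies at 38.4 to 48.0 CPM in KO_HFD and 29.7 to 36.8 CPM in Control_HFD, and at 24.0 to 35.9 CPM in KO and 38.0 to 47.6 CPM in control on chow.

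Chromosome 8, with 1243 of the 23622 tested genes, held several of the leading genes. Of the 24, 6 lie on it: N4bp1 and Spcs3 were higher, and Scoc, Cpne2, Crnde and Zfp330 lower. Spcs3, at 54520433 to 54529998, lies outside the window of 80 to 100 Mb described next. An unadjusted p under 0.05 was reached by 31 of the chromosome's 1243 tested genes (2.49%). Only X had a higher share among chromosomes with 100 or more tested genes, 21 of 761 (2.76%). Between 80 and 100 Mb, a window chosen after its values were seen, 20 of 241 genes (8.3%) reached it, 8 higher and 12 lower, and 33 (13.7%) had groups without overlap, where all genes gave 1.66% and 3.42%. Below 80 Mb the share was 8 of 633 genes (1.26%). Between 100 and 110 Mb, where Agrp itself lies at 105566698 to 105637393, it was 2 of 134 (1.49%). Without the library labelled Control_HFD replicate 3 the window held 21 such genes, where 1.42% of all genes reached this p.

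N4bp1, a negative regulator of NF-kB signalling (ENSMUSG00000031652.11, mm10 chromosome 8, 86808160 to 86885258, minus strand), was at 71.1, 66.1 and 63.8 CPM in KO_HFD, against 46.8, 43.0, 46.4 and 42.0 CPM in Control_HFD. Zfp330, a zinc-finger protein gene (ENSMUSG00000031711.7, mm10 chromosome 8, 82763607 to 82774160, minus strand), was at 19.6, 19.3 and 16.8 CPM in KO_HFD, against 29.7, 28.6, 31.4 and 29.1 CPM in Control_HFD. Both separated the groups with wide gaps, by log2 differences of 0.59 ± 0.17 and -0.67 ± 0.23 (SE). On chow the genotypes did not separate. N4bp1 was at 65.0, 46.1 and 72.6 CPM in KO on chow, against 49.9, 77.7 and 79.5 CPM in chow controls, and Zfp330 at 18.04, 32.9 and 17.3 CPM in KO, against 28.7, 18.5 and 17.2 CPM in controls.

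Over the 13 libraries both genes took 1 of 2 levels, and always opposite ones. In 7 libraries N4bp1 was at 63.8 CPM or more with Zfp330 at 19.6 CPM or less, and in the other 6 N4bp1 was at 49.9 CPM or less with Zfp330 at 28.6 CPM or more. The first combination was seen in 3 of 3 KO_HFD, 0 of 4 Control_HFD, 2 of 3 KO_Chow and 2 of 3 Control_Chow libraries. The pair followed the genotype label on HFD and not on chow. Both genes were picked for their small p on HFD, which makes a separation there likely, and no such choice was made on chow. The part of diet in this contrast was not tested. The library labelled Control_HFD replicate 3 had the control combination for these genes and the KO level for Hsd11b2, which lies farther along the chromosome. What these levels follow was not tested.

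Several other genes of the window were present at low levels. Nod2, a sensor of bacterial cell walls, was at 1.04, 0.914 and 1.12 CPM in KO_HFD, against 0.305, 0.0798, 0.154 and 0.134 CPM in Control_HFD. Adgrg5, an adhesion receptor, and Il27ra, a cytokine receptor subunit, were at 0.504 to 0.753 and 0.311 to 0.637 CPM in KO_HFD, against 0 to 0.18 and 0.119 to 0.16 CPM in Control_HFD. All 3 had groups without overlap, with few counts in the control libraries. Crnde, a long noncoding RNA, was at 0.748, 0.713 and 1.22 CPM in KO_HFD, against 2.27, 1.84, 3.01 and 2.00 CPM in Control_HFD. The labels do not state whether counting used the strand, so reads of Crnde and of genes on its other strand cannot be told apart. Cpne2, a calcium-dependent phospholipid-binding protein, was at 38.4, 38.4 and 36.5 CPM in KO_HFD, against 47.8, 58.0, 39.2 and 49.4 CPM in Control_HFD, and on chow it differed the other way, by 0.25 ± 0.11 on the log2 scale.

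**Figure D3:**
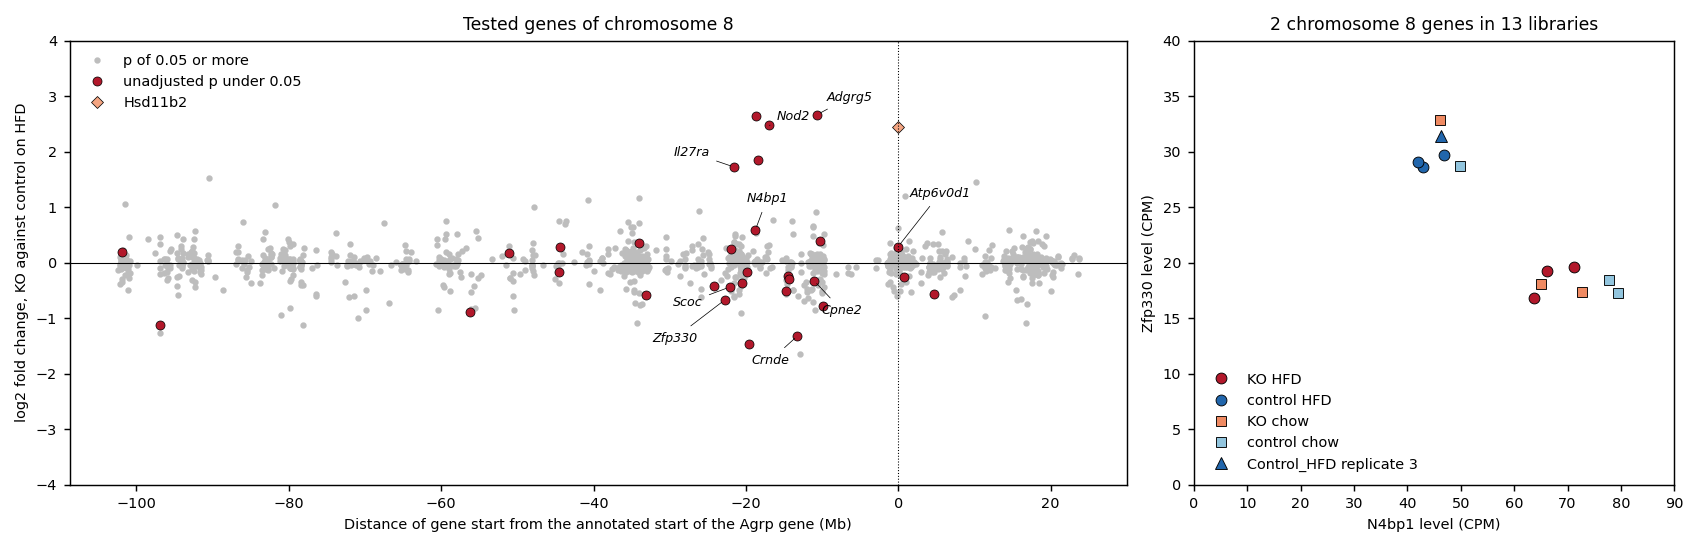
Left, log2 fold change of KO against control on HFD (vertical axis) for the 1243 tested genes of chromosome 8, by distance in Mb of the gene start from the annotated start of Agrp; red points have an unadjusted p under 0.05 and the diamond is Hsd11b2. Right, N4bp1 against Zfp330 level in CPM in each of the 13 libraries, which fall in 2 separate clusters, 7 with high N4bp1 and 6 with high Zfp330, with KO and control on HFD entirely apart and the chow libraries of each genotype in both.

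The peptides of the arcuate neurons varied more within the groups than between them. Agrp was at 33.9, 5.99 and 67.3 CPM in KO_HFD, against 17.1, 61.6, 10.95 and 14.0 CPM in Control_HFD. Npy, made by the same neurons, was at 120.4, 26.0 and 140.0 CPM in KO_HFD, against 76.9, 172, 42.5 and 38.2 CPM in Control_HFD. The groups overlapped for both, and the libraries with high Agrp had high Npy. Of 18 AgRP neuron genes, 15 were higher in KO_HFD, at a median log2 difference of 0.13, which was -0.11 without KO_HFD replicate 3 and 0.37 without Control_HFD replicate 2. Gal had the smallest p of this list, at 156, 111 and 175 CPM in KO_HFD, against 98.4, 176, 61.9 and 106 CPM in Control_HFD. It differed by 0.50 ± 0.25 (SE), with 0 of the 18 genes at an unadjusted p under 0.05.

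Pomc was at 1285, 1192 and 1815 CPM in KO_HFD, against 1288, 1641, 681 and 960.3 CPM in Control_HFD, and the groups overlapped. Pcsk1, the convertase that cuts the POMC precursor, was at 114, 136 and 116 CPM in KO_HFD, against 91.4, 85.0, 111 and 120.2 CPM in Control_HFD. It differed by 0.23 ± 0.10 on HFD and 0.26 ± 0.11 on chow (SE, log2). Prlr, the prolactin receptor of arcuate dopamine and kisspeptin neurons, was at 78.9, 78.3 and 60.8 CPM in KO_HFD, against 82.4, 82.2, 92.7 and 110.2 CPM in Control_HFD. Of the 11 genes of the kisspeptin (KNDy) list it was the 1 lower without overlap (1.55% of all genes), by a log2 difference of -0.35 ± 0.13 (SE).

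Receptors for feeding signals gave few differences. Of 29 tested receptors, 13 were higher and 16 lower, at a median of -0.04 (-0.023 without the library labelled Control_HFD replicate 3), and 1 had an unadjusted p under 0.05 (1.66% of all genes). That was Nmur2, the neuromedin U receptor, at 4.80, 9.25 and 6.62 CPM in KO_HFD, against 7.16, 7.64, 9.75 and 14.0 CPM in Control_HFD. Among 32 genes of leptin and insulin signalling, 19 were higher at a median of 0.03 (0.0090 without that library), with 0 at an unadjusted p under 0.05. The feedback inhibitors Socs3 and Socs1 differed by 0.53 ± 0.37 and 0.49 ± 0.30 (SE), and the insulin receptor substrate Irs1 by -0.22 ± 0.13. Of 28 genes of hypothalamic inflammation and NF-kB, 15 were higher at a median of 0.02 (-0.042 without it). The prostaglandin synthase Ptgs2 was at 0.781, 0.895 and 0.946 CPM in KO_HFD, against 1.39, 1.74, 0.812 and 1.96 CPM in Control_HFD, where the library labelled Control_HFD replicate 3 lay among the KO values. In the KLF and SP family 10 of 22 tested genes were higher and 12 lower, and Klf13 had the smallest p at 0.20 ± 0.09.

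Markers of other cells of the tissue piece differed between libraries of the same group by more than between the groups. Meningeal and collagen genes summed to 458, 4636 and 3403 CPM in KO_HFD, against 463, 4239, 1542 and 5139 CPM in Control_HFD, and each group held a library with little of this RNA. Interferon-induced genes were higher in 29 of 31 members, at a median log2 difference of 0.43, but 0 had an unadjusted p under 0.05 and 0 had groups without overlap. Their summed level was 465, 1021 and 910 CPM in KO_HFD, against 356, 759, 525 and 630 CPM in Control_HFD. The lowest library of each group was replicate 1, as for the meningeal genes, and the part of meningeal content in the interferon values was not tested. The median was 0.29 without Control_HFD replicate 1 or replicate 3, and 0.80 without KO_HFD replicate 1. The chow comparison ran the same way, with 25 of the 31 higher in KO at a median of 0.43.

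Oligodendrocyte myelin genes were higher in 22 of 22 members, at a median of 0.44, again with 0 at an unadjusted p under 0.05. Their summed level was 7239, 11034 and 9293 CPM in KO_HFD, against 9169, 6938, 3856 and 5400.5 CPM in Control_HFD. The library labelled Control_HFD replicate 3 was the lowest, and without it the median was 0.09. Myelin genes were higher in KO on chow as well, 22 of 22 at a median of 0.48. Tanycyte genes, of the cells lining the floor of the third ventricle, were higher in 15 of 18 at a median of 0.31, which was -0.34 without KO_HFD replicate 3 and 0.09 without the doubted library. Their chow median was 0.77, with 15 of 18 higher in KO. Markers of cortex and hippocampus neurons were lower in 9 of 10, at a median of -0.34 (-0.55 without the doubted library). The chow difference went the other way, at a median of 0.32 with 6 of 10 higher in KO. Slc17a7, the glutamate transporter of those neurons, was at 1.56, 2.67 and 5.68 CPM in KO_HFD, against 5.85, 5.79, 3.31 and 10.6 CPM in Control_HFD.

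**Figure D4:**
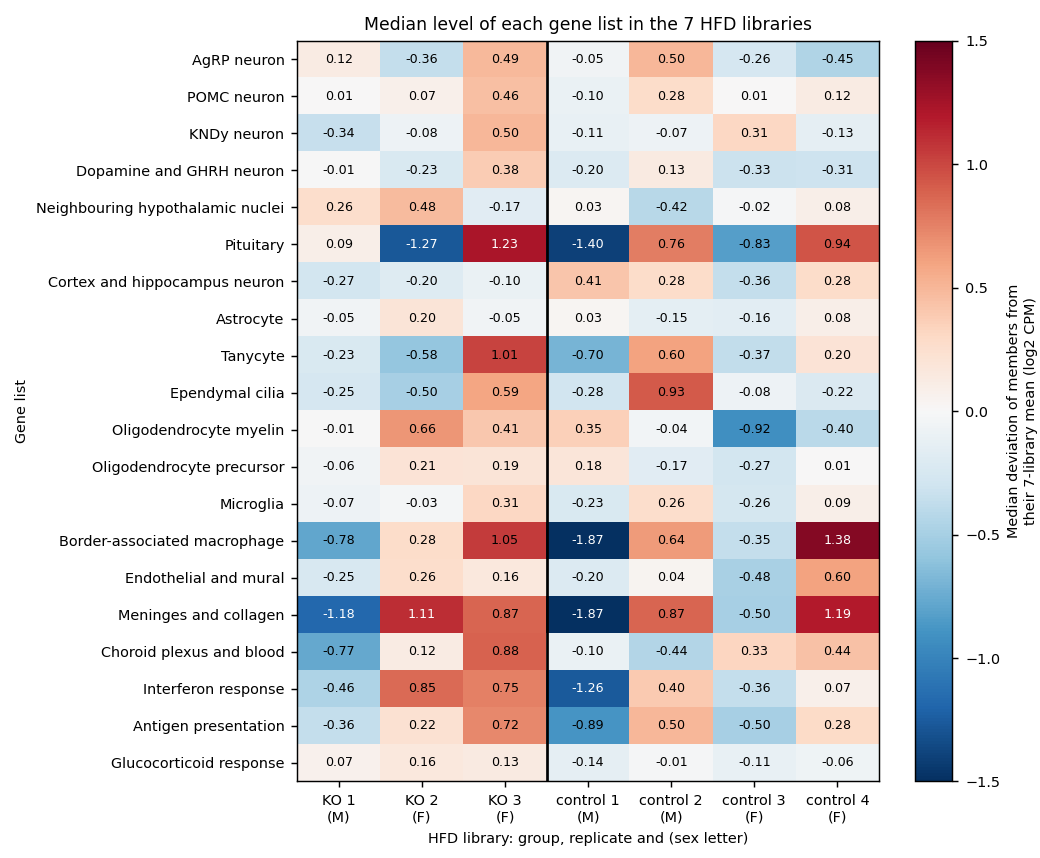
Median deviation of list members from their 7-library mean on the log2 CPM scale (colour and printed value), for 20 gene lists (rows) in each HFD library (columns, KO left of control, sex letter in brackets). Meningeal genes run from -1.18 to 1.11 within KO and from -1.87 to 1.19 within control, whereas glucocorticoid-response genes lie at 0.07 to 0.16 in KO and -0.14 to -0.01 in control.

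Neuronal transmission genes were lower by small amounts. Of 23 genes of GABA and glutamate transmission 22 were lower, at a median of -0.15, and of 21 synaptic vesicle genes 20 were lower, at a median of -0.07. In both lists 0 members had an unadjusted p under 0.05 and 0 had groups without overlap. KO_HFD replicate 3 was the lowest library for the summed vesicle genes, at 5774 CPM, with 8020.5 and 7771.5 CPM in the other KO libraries, against 8365, 6712, 7902 and 7588 CPM in Control_HFD. Without that library the medians were -0.05 and 0.05, so the vesicle list changed sign. The chow medians were -0.27 for GABA and glutamate transmission and -0.23 for synaptic vesicles, with 5 of 23 and 4 of 21 members higher in KO.

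Most genes of the secretory pathway were higher, by very small amounts. Of 28 subunits of the signal peptidase, translocon and signal recognition machinery, 26 were higher, at a median of 0.03 (0.07 without the library labelled Control_HFD replicate 3), and 4 had groups without overlap (1.87% of all genes were higher without overlap). Spcs3, a subunit of the peptidase that removes signal peptides, was at 80.1, 78.1 and 85.8 CPM in KO_HFD, against 73.5, 69.1, 71.0 and 73.8 CPM in Control_HFD. Sec11c, its catalytic subunit, was at 100.2, 101.1 and 101.2 CPM in KO_HFD, against 91.2, 92.3, 88.5 and 89.1 CPM in Control_HFD. These 2 subunits had log2 differences of 0.18 ± 0.06 and 0.15 ± 0.06 (SE), and Sec11c was higher on chow as well, by 0.31 ± 0.06. The remaining signal peptidase subunits, Spcs2, Spcs1 and Sec11a, differed by 0.05, 0.01 and 0.01. Among 25 genes of the unfolded protein response 22 were higher, at a median of 0.09, and 4 had groups without overlap, including the lumenal chaperone Calr and the stress sensor Eif2ak3. Cytosolic ribosomal protein genes were higher in 30 of 32 at a median of 0.11, which was 0.03 without KO_HFD replicate 3. The ribosomal list was also higher in KO on chow, in 32 of 32 at a median of 0.35.

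Immediate early genes, a readout of recent neuronal activity, were higher in 12 of 20 at a median of 0.05 (0.017 without the library labelled Control_HFD replicate 3). Fosl2 had the smallest p, at 8.79, 11.2 and 11.7 CPM in KO_HFD, against 6.11, 7.26, 7.66 and 10.3 CPM in Control_HFD. Myc, which is among the genes that act with KLF4 in pluripotency, was at 15.4, 15.3 and 17.7 CPM in KO_HFD, against 13.4, 13.8, 11.5 and 10.53 CPM in Control_HFD. Its groups did not overlap, by a log2 difference of 0.43 ± 0.18 (SE). Arntl, the clock gene that encodes BMAL1, was at 32.97, 30.3 and 32.4 CPM in KO_HFD, against 35.8, 39.96, 43.9 and 36.6 CPM in Control_HFD, the 1 gene of 21 clock genes without overlap (3.42% of all genes, both directions). Respiratory chain, cholesterol synthesis, fatty acid and heat-shock lists had medians between -0.03 and 0.03, close to the median of all genes. The median of the signal peptidase and translocon list, 0.03, was of the same size.

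**Figure D5:**
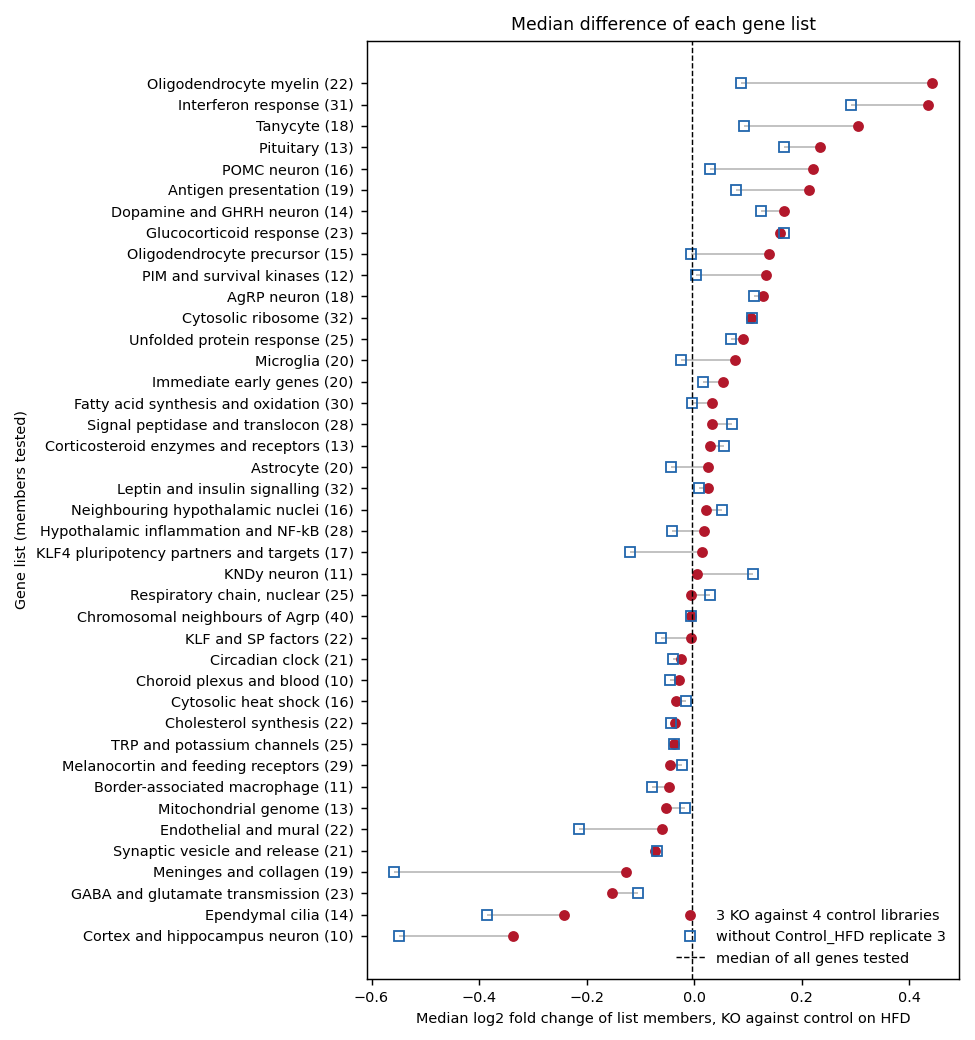
Median log2 fold change of KO against control on HFD (horizontal axis) of each gene list (rows, with the number of members tested), for all 7 HFD libraries in the 13-library fit (red) and without the library labelled Control_HFD replicate 3 (open squares); the dashed line is the median of all genes. Myelin lies at 0.44 with that library and 0.09 without it, meningeal genes at -0.13 and -0.56, and glucocorticoid-response genes at 0.16 and 0.17.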

How the data were processed

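Bulk RNA sequencing libraries were made from the arcuate nucleus from Trizol-extracted RNA with a Takara SMART-Seq low-input kit, per the labels. The authors deposited raw read counts per gene and RPKM values for 13 libraries; the submitters' processing notes name STAR, STAR-Fusion, Subread, FastQC, edgeR and mm10, without versions or roles. The labels state neither strand setting nor annotation release. These deposited RPKM values followed from the counts, the library totals and the listed gene length (largest relative difference 7.1e-16) and were used only for levels between genes. Of 55421 gene identifiers, 54587 matched GENCODE M21 (GRCm38, the assembly of mm10) with the same start, and gene ends and strands come from it.

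Counts were tested with edgeR 4.0.16 in R 4.3.3: filterByExpr (23622 genes left), TMM scaling and the quasi-likelihood test, with all 13 libraries in 1 fit of 4 groups and the title's sex letter as an additive term (8 residual degrees of freedom, biological coefficient of variation 0.23). P-values were adjusted by Benjamini-Hochberg over all genes tested, with a threshold of 0.05. CPM are TMM-scaled. Standard errors are the log2 difference divided by the root of F. The fitting step was tested on simulated data with less spread between libraries, and with larger changes than most leading genes had. That test checks the code and not the results given here. Alternatives were RLE size factors, no low-count filter, DESeq2 1.42.0, limma 3.58.1 voom with robust shrinkage, HFD libraries only, no sex term, each HFD library left out, and Control_Chow replicate 3 left out.

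Named genes are the 12 per direction with the smallest unadjusted p, a minimum mean log2 CPM of 1 and no predicted-gene symbol, 5 per direction by the same rule without the library labelled Control_HFD replicate 3, 7 fixed genes (Klf4, Agrp, Npy, Pomc, Cartpt, Hsd11b2, Atp6v0d1) and up to 4 members of each of 42 gene lists. Further list members named with a value were chosen after their values were seen. The members and lists were chosen with earlier results of these data known. Replicates were numbered by accession, as names only.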

Additional observations from a re-analysis of the deposited data

Results flagged for a closer look

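In the 4 Control_HFD libraries, 85 named genes were checked for a library far from the other 3, and 4 were flagged; chance flags about 1 in 20 groups. Hsd11b2 was at 63.4 CPM in the library labelled Control_HFD replicate 3, against 0.339 to 1.57 CPM in the other controls. Hdc, the histidine decarboxylase of the histamine neurons, was at 170 CPM in the same library, against 9.001 to 26.1 CPM in the other controls, and at 12.4, 4.37 and 9.56 CPM in KO_HFD. Agrp was at 61.6 CPM in Control_HFD replicate 2, against 10.95 to 17.1 CPM in the others. Rgs5, a pericyte gene, was at 30 CPM in Control_HFD replicate 4, against 24.2 to 24.6 CPM in the others, where the 3 KO_HFD libraries had 30.3, 29.1 and 32.0 CPM.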

How the results depend on the processing

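The number of genes called for KO against control on HFD was 0 under each of the 15 alternatives except without Control_HFD replicate 3, where it was 1 (leave-one-out range 0 to 1). That library was doubted for its level of the gene called, Hsd11b2. The count at an unadjusted p under 0.05 was 633 without the low-count filter, against 393, and ranged from 335 (without Control_HFD replicate 3) to 776 (without Control_HFD replicate 2) when a library was left out. For the difference between diets DESeq2 called 6 genes, against 0 by edgeR. Among 1275 values of 85 named genes under these alternatives, 1268 kept their sign and their side of the threshold, 1 (Hsd11b2 without Control_HFD replicate 3, 6.03) passed it, and 6 changed sign. The sign changes were Klf4, at -0.037 in the 6 HFD libraries left without the doubted library (chosen after seeing the data), Agrp from -0.47 to 1.34, Npy from -0.24 to 0.87, Ghsr from -0.075 to 0.75 and Nes from -0.067 to 0.77 when a library was left out, each lowest without KO_HFD replicate 3, and Pomc from -0.084 (without Control_HFD replicate 3) to 0.49. Of 630 list medians 620 moved by less than the spread between libraries. Some list medians still changed sign: those of the AgRP neuron, tanycyte and synaptic vesicle lists did so without KO_HFD replicate 3, as given above. No paired analysis was possible because the titles give no replicate numbers shared by at least 2 mice of each group. With 3 and 4 libraries and 8 residual degrees of freedom, differences of the size named here did not pass adjustment over 23622 genes. Low-level genes such as Nod2 rest on few reads in the control libraries.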

Other observations

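By the rule for leading genes and without the library labelled Control_HFD replicate 3, the 5 higher genes with the smallest p were Hsd11b2, Atp6v0d1, Ccdc36, Pim3 and Cdr2. The 5 lower ones were Cpne2, Scoc, Slc17a7, Spag1 and Trpc5. Atp6v0d1, a subunit of the vacuolar proton pump beside Agrp, was at 291, 269 and 245 CPM in KO_HFD, against 200.04, 209.9, 274 and 196 CPM in Control_HFD, so that library stood at the KO level here too. Ccdc36, a meiosis gene, differed by 0.69 ± 0.19 (SE, log2) and Cdr2, a cerebellar degeneration antigen gene, by 0.33 ± 0.10 without it, each with an edgeR adjusted p of 1. Trh, the thyrotropin-releasing hormone gene, was at 60.3, 57.7 and 23.9 CPM in KO_HFD, against 37.6, 29.1, 33.6 and 22.99 CPM in Control_HFD. Among the F libraries on HFD the Y-linked gene Ddx3y was at 0.0365 and 1.29 CPM in the KO mice, against 0.0439 and 0.98 CPM in the control mice, where the M libraries had 96.8 CPM in KO and 107 to 108 CPM in control.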
